A study of Mus musculus with 11 samples.

Results

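Transcripts of epithelial, endothelial and mesenchymal genes were followed in RNA from sorted mouse alveolar macrophages, the phagocytes of the air spaces. The 37 genes were taken by symbol as markers of the lung's structural cells, 14 epithelial, 10 endothelial and 13 mesenchymal, out of 57180 identifiers in the deposited count table, and all 37 were found. All pups were wild-type C57BL/6 mice, and the cells were sorted from homogenized lungs on postnatal day 7. Hyperoxia pups had breathed 95% oxygen from postnatal day 1 through day 5, and normoxia pups had not. The libraries were 2 from hyperoxia males (HM2, HM3), 3 from hyperoxia females (HF1 to HF3), 3 from normoxia males (NM1 to NM3) and 3 from normoxia females (NF1 to NF3), each name ending in the replicate number of the label. The labels do not say whether a library is 1 animal or a pool, so p-values speak only of how these libraries vary, part of which may be technical. The series asked about sex as a variable in these cells.

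Structural cells build the gas exchange surface on which alveolar macrophages live. Alveolar type 2 cells make surfactant, a film of lipid and the proteins Sftpa1, Sftpb, Sftpc and Sftpd, and macrophages take up and break down used surfactant. Endothelial cells line the capillaries, and fibroblasts, pericytes and smooth muscle lay down collagen and elastin while the alveoli form after birth. In a bulk measurement, fewer cells of a type and less RNA per cell cannot be told apart, and the cell that made a transcript is not seen.

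Surfactant genes are known targets of NKX2-1, the transcription factor of lung epithelium, whose core motif reads CTCAAG, or on the other strand CTTGAG. RefSeq windows (GRCm38.p6) were at hand for 22 of the 37 members, and the 250 bases before the start of 3 type 2 cell genes are shown because Sftpa1 and Sftpb were both highest in HM2 and Abca3 was not. The windows are chr14:41131538-41131787, chr6:72304360-72304609 and chr17:24351773-24352022, all on the plus strand. Capitals mark each motif, read 5′ to 3′.
Sftpa1: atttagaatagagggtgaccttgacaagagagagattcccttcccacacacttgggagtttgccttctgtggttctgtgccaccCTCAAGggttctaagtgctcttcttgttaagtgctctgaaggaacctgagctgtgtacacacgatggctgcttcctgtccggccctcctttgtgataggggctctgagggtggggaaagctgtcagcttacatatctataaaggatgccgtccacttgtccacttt
Sftpb: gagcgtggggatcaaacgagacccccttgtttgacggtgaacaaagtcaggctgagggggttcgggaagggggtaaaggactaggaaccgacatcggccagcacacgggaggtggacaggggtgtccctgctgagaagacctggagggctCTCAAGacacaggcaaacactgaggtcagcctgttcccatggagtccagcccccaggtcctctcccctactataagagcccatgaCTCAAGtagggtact
Abca3: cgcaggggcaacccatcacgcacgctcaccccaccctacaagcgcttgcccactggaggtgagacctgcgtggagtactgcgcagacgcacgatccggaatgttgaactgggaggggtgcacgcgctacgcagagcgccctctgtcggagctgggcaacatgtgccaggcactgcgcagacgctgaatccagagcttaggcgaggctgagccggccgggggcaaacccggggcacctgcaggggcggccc
The motif occurred 1 time before Sftpa1, 2 times before Sftpb and 0 times before Abca3. It stood in the windows of 3 epithelial members (Sftpa1, Sftpb and Hopx), 1 endothelial member (Emcn) and 3 mesenchymal members (Pdgfra, Tcf21 and Postn). These counts are of members with a window, and a member with several windows, as Hopx and Postn, counted if any held it. Of all 32851 windows of this length, 13.3% hold it on either strand, which is a share of windows and not of members. Lamp3, another type 2 cell gene that was highest in HM2, had 0 matches in its window. Sftpc, Sftpd and Napsa, also highest in HM2, had no window. The 3 genes shown were picked after their levels were seen, and whether the motif goes with the level was not tested. A match describes the letters only.

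Total counts ran from 18087948 in NM3 to 32579468 in NF1. Levels are given as CPM, which are counts relative to the TMM-scaled library size, and 3 counts, used as the floor, were worth 0.0880 to 0.160 CPM. That floor and the count intervals below cover counting error only. Markers of the sorted cell were high in every library: Ptprc, the pan-leukocyte surface phosphatase, ran from 578 to 803 CPM in hyperoxia and from 585 to 891 CPM in normoxia, and Siglecf, the lectin that marks alveolar macrophages, from 157 to 300.3 CPM and from 273 to 377 CPM in the same order. The 12 alveolar macrophage markers summed to 4188 to 5958 CPM in hyperoxia and 4034 to 6596 CPM in normoxia. The 37 structural genes together took 0.0352% to 0.0521% of all counts in hyperoxia libraries and 0.0311% to 0.0485% in normoxia libraries. NM3 had the smallest total count and the lowest alveolar macrophage sum. It also had the most counts from chemoreceptor genes, the odorant and vomeronasal receptors, at 260.5 CPM. NF3 (165 CPM), HF3 (143.9 CPM) and HF2 (129.9 CPM) followed, and all others had 48.2 to 75.7 CPM. NM3, NF3, HF3 and HF2 were also the 4 libraries with most genes detected, 33158 to 35530, against 26856 to 30173 in the others.

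Most members were well above the count floor. Only Dcn, Lum and Tcf21 had 3 counts or fewer in any library. Dcn, the proteoglycan decorin, did so in 6 libraries, Lum, the related lumican, in 8, and Tcf21, a fibroblast transcription factor, in 1. A floor of 10 counts added Emcn, an endothelial surface sialomucin, in 4 libraries. Against the 1464 chemoreceptor genes, 34 of 37 members lay above the 95th percentile of CPM per kilobase of exon in all 11 libraries, and the exceptions were the same 3 mesenchymal genes. Against the 99th percentile 29 members did.

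Per kilobase, Sftpc had the highest median level over the 11 libraries, 33.3 CPM per kilobase. Hopx followed at 11.3, Napsa at 10.3, Abca3 at 9.38 and Vwf at 5.46 CPM per kilobase. Among mesenchymal members Acta2, smooth muscle actin, was highest at 2.20 CPM per kilobase, and Dcn and Lum were lowest at 0.0192 and 0.0145 CPM per kilobase.

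**Figure D1:**
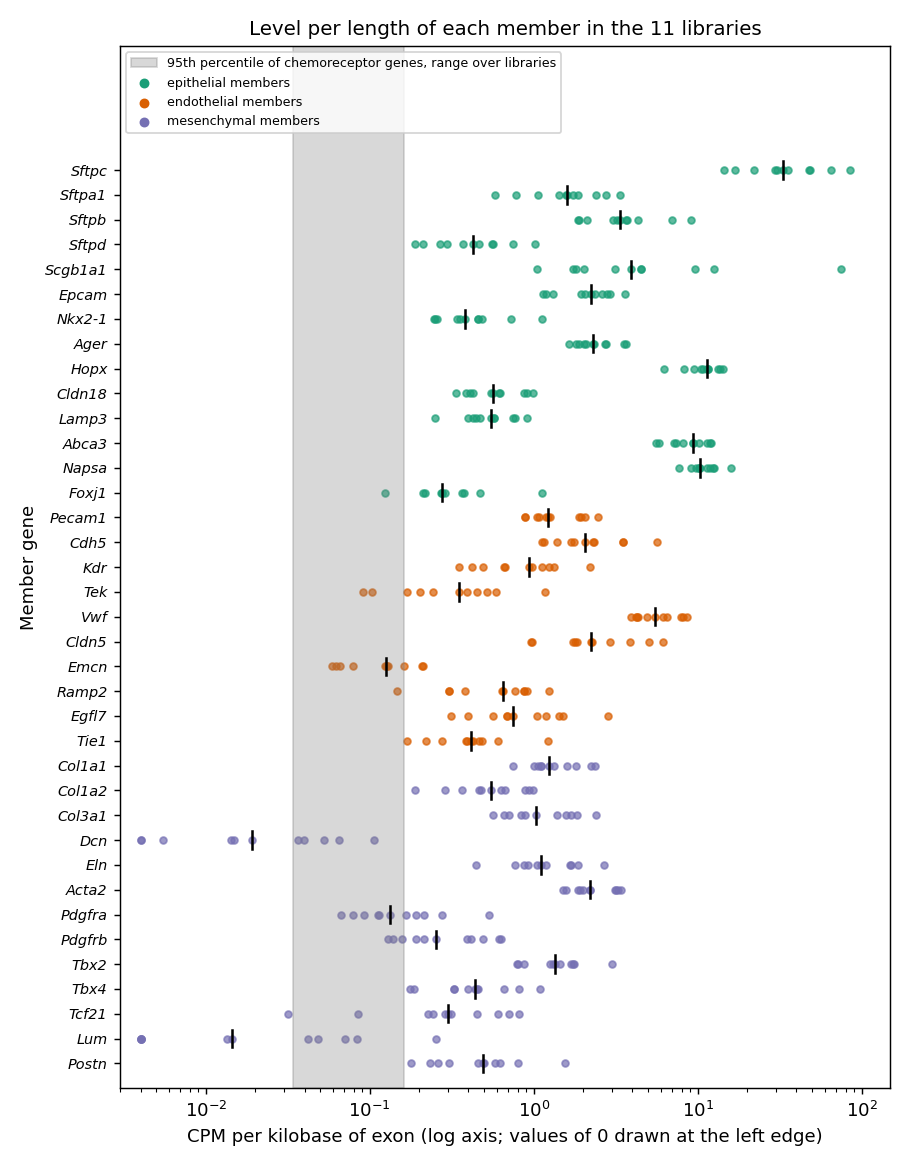
CPM per kilobase of exon (log axis) of each member, with 1 point per library, a black tick at the median of the 11 libraries and grey for the range over libraries of the 95th percentile of chemoreceptor genes. Sftpc stands highest at a median of 33.3, while Dcn and Lum reach into or below the grey band.

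The members differed in how much they varied between libraries, without a clear break between steady and variable genes. Abca3, Napsa, Hopx, Vwf, Ager and Acta2 differed 2.08 to 2.30-fold between their highest and lowest library. Others lay in between, such as Pecam1 (2.80-fold), Epcam (3.16-fold) and Sftpb (4.90-fold). Sftpc differed 5.84-fold, Kdr 6.36-fold, Egfl7 9.06-fold, Tek 12.8-fold and Scgb1a1 71.6-fold. Abca3, Napsa and Hopx made up 49.9% to 73.0% of the epithelial CPM in hyperoxia libraries and 51.8% to 77.0% in normoxia libraries. Vwf alone made up 55.2% to 87.1% of the endothelial CPM in hyperoxia libraries and 40.1% to 79.2% in normoxia libraries.

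No member passed the test in any comparison of oxygen groups. With edgeR's quasi-likelihood test and Benjamini-Hochberg adjustment over 19948 genes, 0 of the 36 members tested were called over both sexes (Lum fell under the expression filter), against 0.707% of all genes tested. At an unadjusted p under 0.05, 3 members were higher in hyperoxia (4.79% of all genes) and 7 were lower (3.33% of all genes). DESeq2 called 2 members, Cldn5 (adjusted p = 0.0307) and Epcam (adjusted p = 0.0364), both lower in hyperoxia, against 3.35% of the genes it tested. By the edgeR fit, log2 fold changes of hyperoxia over normoxia had a median of -0.47 over the members and -0.03 over all genes. The 14 epithelial members had a median of 0.32, with 11 above 0. The 10 endothelial members had a median of -0.66, with 0 above 0, and the 12 mesenchymal members tested had a median of -0.66, with 2 above 0. Nkx2-1 was -0.0095 with RLE scaling, and Vwf was 0.010 without scaling beyond the total count.

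**Figure D2:**
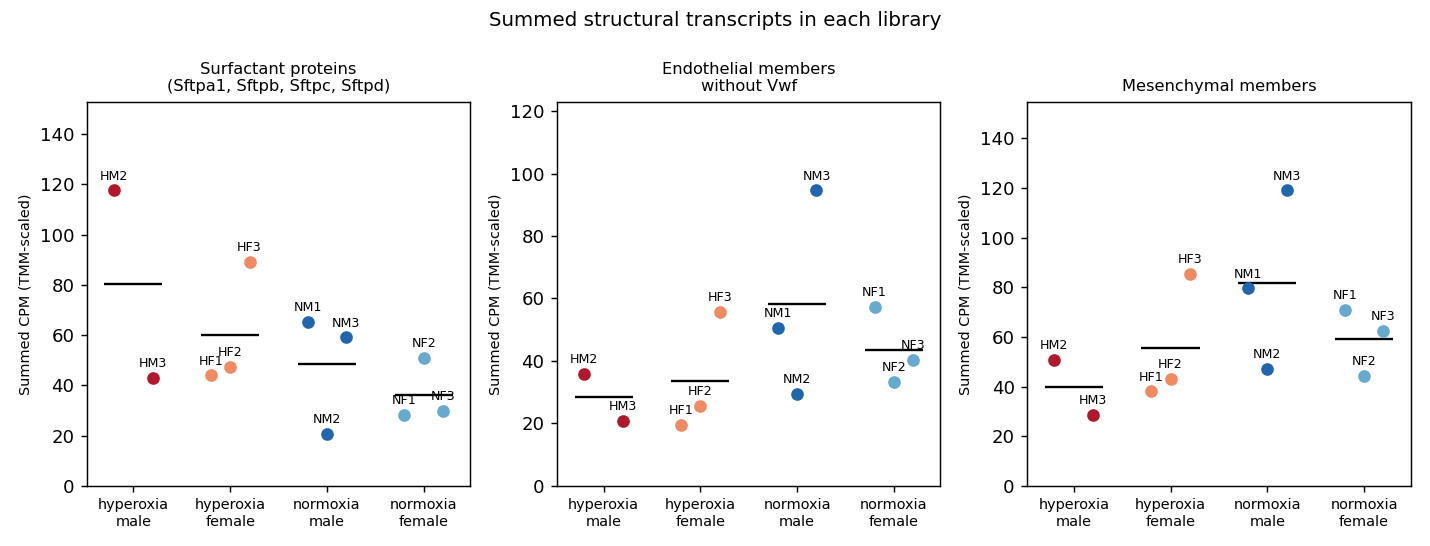
Summed CPM of the surfactant proteins, the endothelial members without Vwf and the mesenchymal members, 1 point per library with its name, in hyperoxia and then normoxia groups by sex, with a line at each group's mean. HM2 has the highest surfactant sum (117.6 CPM) and NM3 the highest endothelial and mesenchymal sums (94.6 and 119.0 CPM), and the groups overlap in all 3 panels.

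Members taken as type 2 cell genes had positive estimates over both sexes. All 7 (Sftpa1, Sftpb, Sftpc, Sftpd, Lamp3, Abca3 and Napsa) had log2 fold changes above 0, with a median of 0.68 over both sexes, and none passed edgeR's test. Lamp3 was close to 0 at 0.04, and it was -0.13 without HM2, -0.13 without NM2 and -0.05 without NF1. In females 5 of the 7 were above 0, and Lamp3 (-0.42) and Abca3 (-0.13) were below. Sftpc, the hydrophobic surfactant protein made by type 2 cells alone, had 87.6 and 30.4 CPM in HM2 and HM3 and 31.4, 34.4 and 67.2 CPM in HF1 to HF3, against 49.5, 15 and 50.3 CPM in NM1 to NM3 and 17.4, 36.6 and 22.7 CPM in NF1 to NF3. HM2 and HF3 were the highest libraries, and the other 3 hyperoxia libraries lay within the normoxia range. The Sftpc log2 fold change was 0.71 ± 0.39 (SE; edgeR adjusted p = 0.753), and it was 0.25 without HM2.

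Sftpb, which is needed for the surfactant film to spread, had 18 and 6.32 CPM in HM2 and HM3 and 6.60, 7.16 and 13.8 CPM in HF1 to HF3, against 6.03, 3.67 and 3.72 CPM in NM1 to NM3 and 7.32, 8.50 and 4.14 CPM in NF1 to NF3. Both hyperoxia male libraries lay above all 3 normoxia male libraries, while the female libraries overlapped. The Sftpb log2 fold change was 0.95 ± 0.28 (SE; edgeR adjusted p = 0.178, unadjusted p = 0.00391), and it was 0.49 without HM2. Sftpa1, a collectin that binds microbes, ran from 4.52 to 9.58 CPM in hyperoxia and from 1.67 to 7.90 CPM in normoxia. Sftpd, the other collectin, ran from 0.898 to 2.44 CPM in hyperoxia and from 0.458 to 1.81 CPM in normoxia. Over both sexes the oxygen groups overlapped for both collectins, while in females alone the Sftpd libraries did not overlap.

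Napsa, an aspartic protease that processes surfactant protein precursors, had 42.3 and 31.7 CPM in HM2 and HM3 and 33.6, 32.8 and 26.1 CPM in HF1 to HF3, against 30.4, 27.4 and 20.3 CPM in NM1 to NM3 and 27.1, 27.0 and 24.2 CPM in NF1 to NF3. Hyperoxia libraries lay above normoxia libraries in males and overlapped them in females. The Napsa log2 fold change was 0.37 ± 0.16 (SE; edgeR adjusted p = 0.488, unadjusted p = 0.0291). Abca3, the lipid transporter of lamellar bodies, had 76.7 and 87.9 CPM in HM2 and HM3 and 106.7, 95.1 and 66.8 CPM in HF1 to HF3, against 52.0, 88.1 and 54.7 CPM in NM1 to NM3 and 111.5, 113.5 and 68.8 CPM in NF1 to NF3. Its highest libraries were not those of Sftpc, and its log2 fold change was 0.11 ± 0.20 (SE; edgeR adjusted p = 0.994). Abca3 counts were 0.813 to 1.20 times those of Vwf in hyperoxia and 0.751 to 0.896 times in normoxia. Which cells gave the Abca3 transcripts was not tested. Lamp3, a lamellar body membrane protein, ran from 1.33 to 3.04 CPM in hyperoxia and from 0.833 to 2.60 CPM in normoxia.

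The ratio between Sftpc and Sftpb counts was nearly constant in hyperoxia and not in normoxia. It was 4.87 in HM2, 4.82 in HM3, 4.76 in HF1, 4.81 in HF2 and 4.87 in HF3, against 8.20 in NM1, 4.09 in NM2, 13.5 in NM3, 2.38 in NF1, 4.31 in NF2 and 5.48 in NF3. The exact 95% interval was 4.40 to 5.40 in HM2, and those of the 5 hyperoxia libraries overlapped. The 5 ratios lay closer together than the width of any of these intervals, so counting error alone would spread them more. In normoxia the interval was 10.6 to 17.4 in NM3, 6.74 to 10.1 in NM1 and 2.04 to 2.79 in NF1, which do not overlap one another. The intervals of NM2 (3.2 to 5.2), NF2 (3.74 to 4.98) and NF3 (4.40 to 6.88) held all the hyperoxia ratios. The pair was picked after its values were seen, so the contrast is a description with no test. The ratio of Sftpc to Sftpa1 spanned 5.69 to 9.84 in hyperoxia and 5.77 to 12.3 in normoxia, and did not show the same narrow range. Of the other pairs computed, Sftpb to Sftpa1 also spread less in hyperoxia (1.71-fold between highest and lowest library, against 3.17-fold in normoxia). Sftpc to Sftpd (2.17-fold against 1.89-fold) and Sftpc to Cldn18 (2.01-fold against 1.78-fold) spread more in hyperoxia. So did Abca3 to Vwf (1.48 and 1.19), Scgb1a1 to Foxj1 (16.4 and 15.6) and Col1a1 to Col1a2 (1.7 and 1.55).

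**Figure D3:**
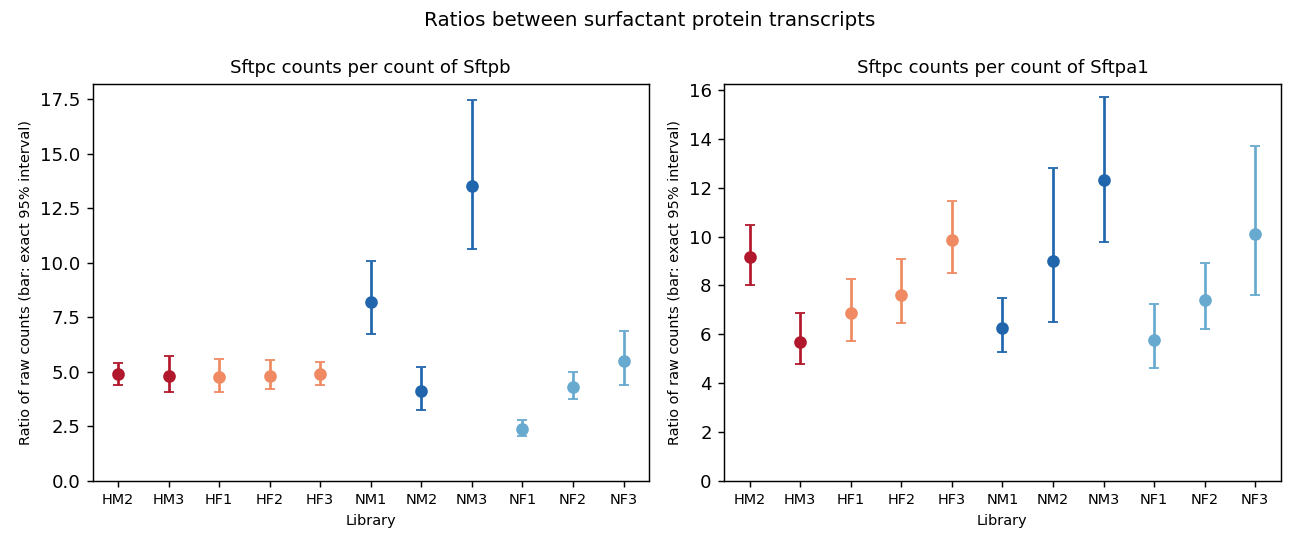
Ratio of raw counts of Sftpc to Sftpb and of Sftpc to Sftpa1 in each library, hyperoxia libraries on the left, with exact 95% intervals for counting error. Sftpc per Sftpb lies between 4.76 and 4.87 in the 5 hyperoxia libraries and between 2.38 and 13.5 in the 6 normoxia libraries.

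Type 1 cells form the thin wall of the alveolus, and they were represented by Hopx and Ager. Hopx, a homeodomain protein without DNA binding, had 20.3 and 21.6 CPM in HM2 and HM3 and 17.2, 17.6 and 20.7 CPM in HF1 to HF3, against 16.4, 12.5 and 14.3 CPM in NM1 to NM3 and 15.9, 9.39 and 17.5 CPM in NF1 to NF3. Male libraries did not overlap and female libraries did. The Hopx log2 fold change was 0.46 ± 0.17 (SE; edgeR adjusted p = 0.358, unadjusted p = 0.0147). Ager, the receptor RAGE, ran from 4.48 to 7.59 CPM in hyperoxia and from 3.5 to 7.79 CPM in normoxia.

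Epcam, an epithelial adhesion molecule, had an estimate of the opposite sign to the type 2 cell genes. It had 2.60 and 4.90 CPM in HM2 and HM3 and 4.24, 2.49 and 2.88 CPM in HF1 to HF3, against 6.14, 7.88 and 4.49 CPM in NM1 to NM3 and 6.42, 5.76 and 5.22 CPM in NF1 to NF3. Every hyperoxia female library lay below every normoxia female library, and HM3 lay above NM3. The Epcam log2 fold change was -0.79 ± 0.23 (SE; edgeR adjusted p = 0.176, unadjusted p = 0.00381). Nkx2-1 ran from 0.730 to 2.06 CPM in hyperoxia and from 0.700 to 3.20 CPM in normoxia, and Cldn18, a tight junction protein, from 1.89 to 4.05 CPM and from 1.5 to 4.44 CPM in the same order.

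The airway members Scgb1a1 and Foxj1 were highest in NF1. Scgb1a1, the secretoglobin of club cells, ran from 0.829 to 6.01 CPM in hyperoxia and from 0.498 to 2.16 CPM in 5 normoxia libraries, with 35.7 CPM in NF1. Foxj1, the transcription factor of ciliated cells, ran from 0.323 to 0.962 CPM in hyperoxia and from 0.569 to 2.93 CPM in normoxia, again highest in NF1. The Scgb1a1 log2 fold change was -0.85 ± 1.1 (SE; edgeR adjusted p = 0.980), and it was 0.79 without NF1. Airway genes outside the members were split. Cyp2f2 and Tppp3 were highest in NF1, as were Ccdc153 and Dynlrb2, with at most 13 and 10 counts. Ccdc153 was nearly level in NF1 and NM3 (0.414 and 0.413 CPM), and so was Dynlrb2 in NF1 and HM2 (0.318 and 0.315 CPM). Tppp3 had 45.99 CPM in NF1, close to 44.24 CPM in NM1 and 42.85 CPM in NF3. Scgb3a2 was highest in NM3 (2.63 CPM, against 2.42 CPM in NF1), and so was Scgb3a1 (1.29 CPM, against 0 in NF1).

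Endothelial junction genes had negative estimates. Cldn5, the tight junction claudin of endothelium, had 3.19 and 1.38 CPM in HM2 and HM3 and 1.36, 2.52 and 2.61 CPM in HF1 to HF3, against 5.50, 2.46 and 8.72 CPM in NM1 to NM3 and 7.16, 3.17 and 4.14 CPM in NF1 to NF3. Only the female libraries did not overlap. The Cldn5 log2 fold change was -1.22 ± 0.35 (SE; edgeR adjusted p = 0.154, unadjusted p = 0.00278), the smallest p among the members in the comparison over both sexes.

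Cdh5, VE-cadherin, had 7.45 and 5.84 CPM in HM2 and HM3 and 4.88, 4.72 and 14.6 CPM in HF1 to HF3, against 9.82, 7.08 and 23.8 CPM in NM1 to NM3 and 14.7, 8.61 and 9.61 CPM in NF1 to NF3. HF3 and NM3 were the highest of their oxygen groups. The Cdh5 log2 fold change was -0.74 ± 0.38 (SE; edgeR adjusted p = 0.726), and it was -0.39 without NM3. Pecam1, the adhesion molecule CD31 that leukocytes also carry, had 7.45 and 5.50 CPM in HM2 and HM3 and 5.47, 7.60 and 12.1 CPM in HF1 to HF3, against 11.7, 6.75 and 15.3 CPM in NM1 to NM3 and 12.8, 7.83 and 6.51 CPM in NF1 to NF3. These libraries overlapped in both sexes. Emcn ran from 0.337 to 1.13 CPM in hyperoxia and from 0.320 to 1.15 CPM in normoxia.

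Endothelial receptors were highest in NM3. Kdr, the main receptor of vascular endothelial growth factor, ran from 3.15 to 12.1 CPM in hyperoxia and from 5.92 to 20.02 CPM in normoxia. Tek, the angiopoietin receptor, ran from 0.431 to 2.78 CPM in hyperoxia and from 0.948 to 5.52 CPM in normoxia. Its relative Tie1 ran from 0.829 to 2.27 CPM in hyperoxia and from 1.08 to 6.04 CPM in normoxia. Ramp2, which makes the adrenomedullin receptor with Calcrl, ran from 0.486 to 3.02 CPM in hyperoxia and from 1 to 4.08 CPM in normoxia. The exons of Ramp2 overlap those of Vps25, which had 584 to 1524 counts a library, so its value is uncertain.

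The secreted endothelial proteins were highest in different libraries. Vwf, the clotting factor stored in endothelium and platelets, had 67.4 and 98.2 CPM in HM2 and HM3 and 131.3, 79.1 and 68.7 CPM in HF1 to HF3, against 69.3, 104.2 and 63.3 CPM in NM1 to NM3 and 138.8, 126.7 and 87.8 CPM in NF1 to NF3. NM3, the library where 8 of the 10 endothelial members were highest, had the lowest Vwf level. Platelet markers summed to 1.76 to 9.62 CPM in hyperoxia and 0.954 to 5.44 CPM in normoxia, and their part in the Vwf level was not tested.

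Egfl7, a matrix protein secreted by endothelium, had 2.44 and 1.12 CPM in HM2 and HM3 and 1.43, 2.46 and 5.12 CPM in HF1 to HF3, against 3.74, 2.67 and 10.2 CPM in NM1 to NM3 and 4.23, 2.03 and 5.39 CPM in NF1 to NF3. Male libraries did not overlap and female libraries did. The Egfl7 log2 fold change was -0.999 ± 0.41 (SE; edgeR adjusted p = 0.476, unadjusted p = 0.0278). Its exons overlap Agpat2 on the other strand, with 207 to 313 counts a library, and whether the counting used strand is not given in the sources used here.

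Of the 6 matrix genes tested, 0 had estimates above 0 in males and 3 did in females, and none passed the adjusted threshold. Eln, elastin, had 7.45 and 3.59 CPM in HM2 and HM3 and 6.23, 7.04 and 13.4 CPM in HF1 to HF3, against 15, 8.92 and 21.7 CPM in NM1 to NM3 and 13.6, 8.50 and 9.66 CPM in NF1 to NF3. Male libraries did not overlap, and HF3 lay near the highest normoxia female library. The Eln log2 fold change was -1.46 ± 0.41 in males (SE; edgeR adjusted p = 0.394) and -0.26 ± 0.35 in females (SE; edgeR adjusted p = 1). The female response minus the male response was 1.20 ± 0.53 (SE; edgeR adjusted p = 1, unadjusted p = 0.0381).

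Col3a1, the fibrillar collagen of soft tissue, had 6.98 and 5.54 CPM in HM2 and HM3 and 8.62, 8.21 and 15.4 CPM in HF1 to HF3, against 18, 6.46 and 23.6 CPM in NM1 to NM3 and 16.6, 10.1 and 13.6 CPM in NF1 to NF3. NM2 was the low normoxia library. The Col3a1 log2 fold change over both sexes was -0.84 ± 0.28 (SE; edgeR adjusted p = 0.276, unadjusted p = 0.00889). Col1a1, a chain of type I collagen, had 8.75 and 4.94 CPM in HM2 and HM3 and 7.26, 7.28 and 15.5 CPM in HF1 to HF3, against 10.5, 7.00 and 14.8 CPM in NM1 to NM3 and 11.8, 6.62 and 8.10 CPM in NF1 to NF3. Its highest library was HF3. Col1a2, the other chain, ran from 2.36 to 12.3 CPM in hyperoxia and from 4.52 to 11.7 CPM in normoxia, and Postn, the matrix protein periostin, from 1.55 to 6.97 CPM and from 2.28 to 13.5 CPM in the same order.

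Dcn and Lum were close to the floor, with at most 13 and 12 counts in a library. Dcn had 0 and 0.112 CPM in HM2 and HM3 and 0.232, 0.381 and 0.309 CPM in HF1 to HF3, against 0.213, 0.0833 and 0.619 CPM in NM1 to NM3 and 0.0318, 0 and 0.0862 CPM in NF1 to NF3. Its female response minus male response had an unadjusted p of 0.0230 (edgeR adjusted p = 1). Lum ran from 0 to 0.205 CPM in hyperoxia and from 0 to 0.619 CPM in normoxia.

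Contractile and receptor genes of mesenchyme were split. Acta2 ran from 4.18 to 7.13 CPM in hyperoxia and from 3.32 to 7.48 CPM in normoxia. Pdgfra, the growth factor receptor of alveolar fibroblasts, ran from 0.673 to 2.78 CPM in hyperoxia and from 0.925 to 5.32 CPM in normoxia. Pdgfrb, the receptor of pericytes, had 0.709 and 0.860 CPM in HM2 and HM3 and 0.763, 1.17 and 2.27 CPM in HF1 to HF3, against 2.67, 1.04 and 3.46 CPM in NM1 to NM3 and 2.13, 1.39 and 3.36 CPM in NF1 to NF3. Male libraries did not overlap, and HF3 lay within the normoxia female range. The Pdgfrb log2 fold change was -1.15 ± 0.40 (SE; edgeR adjusted p = 0.308, unadjusted p = 0.0110).

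Mesenchymal transcription factors had negative estimates over both sexes. Tbx2, a T-box factor, had 5.24 and 2.92 CPM in HM2 and HM3 and 2.88, 3.17 and 6.38 CPM in HF1 to HF3, against 4.91, 4.58 and 10.9 CPM in NM1 to NM3 and 6.14, 4.77 and 6.29 CPM in NF1 to NF3. The libraries overlapped in both sexes, and the log2 fold change was -0.60 ± 0.28 (SE; edgeR adjusted p = 0.607, unadjusted p = 0.0489). Tbx4, the T-box factor of lung mesenchyme, ran from 0.599 to 2.23 CPM in hyperoxia and from 1.1 to 3.72 CPM in normoxia. Tcf21 ran from 0.0748 to 1.06 CPM in hyperoxia and from 0.534 to 1.92 CPM in normoxia.

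**Figure D4:**
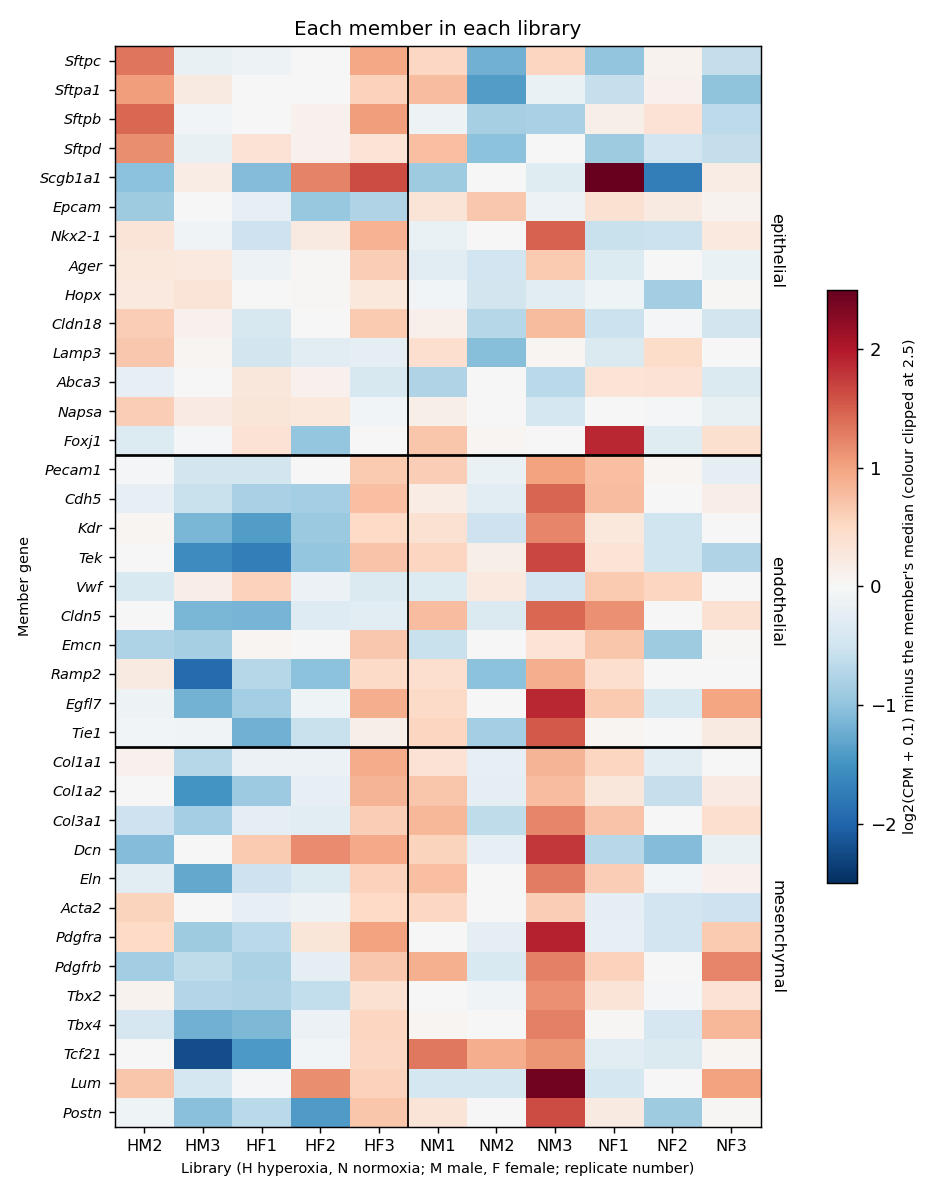
Colour gives log2(CPM + 0.1) minus the member's median over the 11 libraries for each member (rows, by lineage) and library (columns, hyperoxia on the left of the line). NM3 is the highest library for 21 of 37 members, and HM2 for 6 epithelial members.

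Single libraries stood out across members. NM3 was the highest library for 8 of 10 endothelial and 10 of 13 mesenchymal members, but for 3 of 14 epithelial members. Over all genes tested NM3 was highest for 24.5%. HM2 was highest for 6 epithelial members and for 0 endothelial or mesenchymal ones, against 5.25% of all genes tested. HF3 was the highest library for 2 members, against 5.65% of all genes tested. It was among the 2 highest libraries for 16 members, and the share of all genes for which it was so was not computed. The part of the chemoreceptor levels of NM3 and HF3 in their structural transcripts was not tested. Without NM3 the median log2 fold change was -0.38 for endothelial and -0.40 for mesenchymal members.

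Summed levels overlapped between the oxygen groups. All epithelial members averaged 226.5 ± 28.6 CPM in hyperoxia (SD, n = 5) and 188.8 ± 31.0 CPM in normoxia (SD, n = 6). Of these, the surfactant proteins averaged 68.2 ± 33.7 CPM in hyperoxia and 42.3 ± 18.4 CPM in normoxia. All endothelial members averaged 120.4 ± 19.3 CPM in hyperoxia and 149.3 ± 28.1 CPM in normoxia. Without Vwf they averaged 31.5 ± 15 CPM in hyperoxia and 50.9 ± 23.8 CPM in normoxia. Mesenchymal members averaged 49.2 ± 21.9 CPM in hyperoxia and 70.5 ± 27.4 CPM in normoxia. Erythroid markers also summed to 52.2 to 301.9 CPM in hyperoxia and 101 to 1200 CPM in normoxia, and their part in these sums was not tested.

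By sex, edgeR called 0 members in males and 0 in females, against 0.0401% of all genes in males and 0.0401% in females. In males 3 members were higher at an unadjusted p under 0.05 (3.23% of all genes) and 8 were lower (2.27%). In females 0 were higher (2.78%) and 2 were lower (1.75%), namely Epcam and Cldn5. DESeq2 called 0 members in males (0.517% of its genes) and 0 in females (0.638%). In males 3 members did not overlap with hyperoxia higher (8.62% of all genes), namely Sftpb, Hopx and Napsa. A further 9 did not overlap with hyperoxia lower (8.49%), namely Foxj1, Tek, Emcn, Egfl7, Eln, Pdgfrb, Tbx4, Tcf21 and Postn. In females 3 did not overlap with hyperoxia higher (6.23%), Sftpd, Dcn and Acta2, and 2 with hyperoxia lower (4.01%), Epcam and Cldn5.

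The response of females minus that of males was called for 0 members by edgeR (0% of all genes) and for 0 by DESeq2 (0.0151% of its genes). At an unadjusted p under 0.05 it passed for 2 members, Dcn and Eln, against 1.67% of all genes. The 12 mesenchymal members tested all had a positive estimate, with a median of 1.09. Among all genes tested, 10177 of 19948 had a positive estimate, with a median of 0.01. Of 31 further mesenchymal markers, taken up below, 23 were above 0 and 8 below, with a median of 0.65. The genes share libraries, so their signs are not independent. Mesenchymal log2 fold changes had a median of -1.36 in males and 0.00 in females, and endothelial ones -0.94 in males and -0.36 in females. Without NM3, 0 of 35 members passed the unadjusted threshold for the difference between the sexes.

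**Figure D5:**
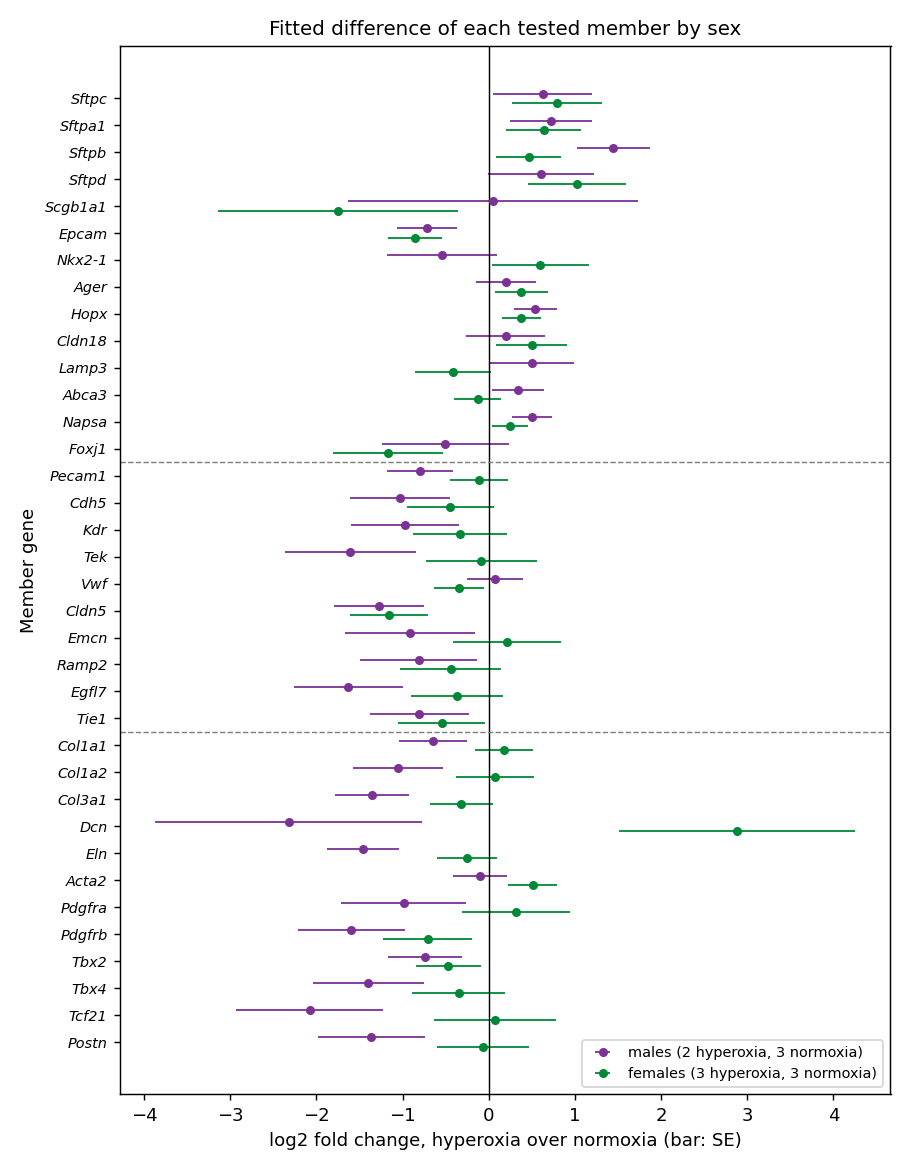
Log2 fold change of hyperoxia over normoxia of the 36 tested members in males and in females, with SE, by lineage. Mesenchymal estimates lie lower in males (median -1.36) than in females (median 0.00), and no member passed edgeR's test in either sex.

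Other genes of the same lineages were read from further lists. Of the further markers tested, 0 of 20 epithelial, 0 of 27 endothelial and 0 of 31 mesenchymal genes passed edgeR's test over both sexes, against 0.707% of all genes. Their log2 fold changes had a median of -0.08 for the epithelial list (7 above 0 and 13 below), -0.43 for the endothelial list (4 above and 23 below) and -0.30 for the mesenchymal list (9 above and 22 below). The further epithelial genes thus did not share the positive median of the epithelial members. At an unadjusted p under 0.05 they numbered 1 higher and 3 lower, 1 higher and 1 lower, and 1 higher and 4 lower in the same order, against 4.79% higher and 3.33% lower among all genes. NM3 was the highest library for 19 of 27 further endothelial and 21 of 34 further mesenchymal genes, but for 7 of 24 further epithelial ones.

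Cdh1, Krt19, Akap5 and Tppp3 held 92.4% to 97.0% of the further epithelial CPM in hyperoxia libraries and 90.8% to 98.0% in normoxia libraries. Krt8, a keratin of simple epithelium, had only 0.711 to 2.40 CPM in hyperoxia and 0.333 to 2.37 CPM in normoxia. Cdh1, an adhesion cadherin, had positive estimates, with 259.9 to 394.3 CPM in hyperoxia and 100.7 to 272.6 CPM in normoxia. The Cdh1 log2 fold change was 0.89 ± 0.34 in males (SE; edgeR adjusted p = 0.775) and 0.43 ± 0.31 in females (SE). Akap5, a kinase anchoring protein, ran from 19.7 to 30.2 CPM in hyperoxia and from 31.1 to 53.5 CPM in normoxia, without overlap, with a log2 fold change of -0.72 ± 0.16 (SE; edgeR adjusted p = 0.0559). Krt19, a keratin, had -0.80 ± 0.21 (SE; edgeR adjusted p = 0.116). Neither passed the threshold. Of the 12 alveolar macrophage markers 3 passed, against 0.707% of all genes, and 2 of the other 9, Marco (0.18) and Mrc1 (0.01), had estimates above 0. Ear1, Fabp4 and Krt79 fell in hyperoxia, with log2 fold changes of -0.98 ± 0.18, -1.53 ± 0.31 and -1.32 ± 0.24 (SE; edgeR adjusted p = 0.0161, 0.0377 and 0.0144). Ear1 has near-identical paralogs, so its counts are uncertain.

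The endothelial gene Cyyr1 had a log2 fold change of -1.03 ± 0.31 (SE; edgeR adjusted p = 0.191), and Cd34, a sialomucin of endothelium and progenitors, 0.57 ± 0.25 (SE; edgeR adjusted p = 0.530). Among mesenchymal genes Fstl1, a secreted glycoprotein, had -0.81 ± 0.23 (SE; edgeR adjusted p = 0.162) and Gucy1a1, a subunit of the nitric oxide receptor, -1.07 ± 0.35 (SE; edgeR adjusted p = 0.242). Cd34 was thus among the 4 of 27 further endothelial genes with a positive estimate.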

How the data were processed

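RNA of sorted alveolar macrophages was measured in 11 libraries. The deposited table holds raw counts per Ensembl gene, not normalized. Per the labels' protocols, a low-input cDNA kit was used, the first 8 bases were molecular identifiers that were trimmed, and fragments under 250 bp were removed from some libraries. Whether duplicates were collapsed or strand was used is not stated there. The submitters' processing notes list build mm39 and, with no roles, DESeq2 1.42, R 4.3.2, Salmon 1.10.1, STAR 2.7.9 and Trim Galore 0.6.7.

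Symbols matched 51884 of 57180 identifiers (90.7%). Exon lengths came from GENCODE M21, of another build, so no coordinates were taken from it. Counts were fitted with edgeR 4.0.16 in R 4.3.3 (expression filter with a minimum count of 10 and total of 15, TMM, robust quasi-likelihood, 1 mean per oxygen and sex group, Benjamini-Hochberg over 19948 genes, threshold 0.05) and, as an alternative, with DESeq2 1.42.0. The fit was tested on simulated data. Other scalings, no filter, a replicate block and leaving out libraries were tried.

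The members and gene lists were chosen with earlier results of these data known. All 37 members are named. Values in every library are given for the 3 members with most counts in each lineage and for those with an unadjusted p under 0.05 over both sexes or between the sexes. From each further list the members past the test or, with none, the 2 of smallest p are named. Cdh1, Tppp3, Krt8, Cyp2f2, Ccdc153, Dynlrb2, Scgb3a1 and Scgb3a2 were added after their values were seen. Replicates differed by more than sampling noise in every group (smallest chi-square per gene 20.9).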

Additional observations from a re-analysis of the deposited data

Results flagged for a closer look

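In 12 of 74 sets of libraries (each member in each oxygen group, both sexes together), the highest library stood far from the others by Dixon's criterion on CPM. Its rate of about 1 in 20 sets by chance holds for normally distributed values, which CPM need not be. No excess over chance can therefore be read from the 12 sets. Members share libraries, so the sets are not independent.

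NM3 was the library that stood apart in 9 of them, all in normoxia. Its levels were 3.20 CPM for Nkx2-1, 7.79 CPM for Ager, 20.02 CPM for Kdr, 5.52 CPM for Tek and 5.32 CPM for Pdgfra. They were 10.9 CPM for Tbx2, 13.5 CPM for Postn, and 0.619 CPM for both Dcn and Lum. NF1 stood apart for the airway genes Scgb1a1 (35.7 CPM) and Foxj1 (2.93 CPM), also in normoxia. HF3 stood apart in hyperoxia for Cdh5 (14.6 CPM). The reason for each was not tested.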

How the results depend on the processing

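Against 0 members called over both sexes, edgeR called 1 with no scaling beyond the total count (Napsa; 490 of 19948 genes), 4 with no expression filter (Cldn5, Col3a1, Eln and Sftpb; 302 of 47573 genes) and DESeq2 2 (Cldn5 and Epcam; 448 of 13359 genes). In males 3 were called with no filter (Col3a1, Eln and Sftpb; 83 of 47573 genes). Leaving out each library gave 0 to 2 members over both sexes, the 2 being Cldn5 and Col3a1 without NM2, and 0 to 0 in each sex and for the difference between the sexes. Without scaling the median of all genes moved to 0.12, from -0.03. That setting drops the TMM factors, which were 0.9958 to 1.192 in hyperoxia and 0.8693 to 1.075 in normoxia. Why the factors differed was not tested.

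With the replicate block, 0 members were called in each comparison, while calls over all genes numbered 256, against 141 without it. Deviations of same-numbered libraries correlated at 0.291, -0.0883 and 0.433 between hyperoxia and normoxia females and at 0.133, 0.437 and 0.574 between normoxia males and females. The labels tie the numbers to no shared animal or day, and not every pair of hyperoxia and normoxia libraries exceeded 0.1, so the numbers were not taken to pair them. HF1 correlated best with NF2 (0.367) among normoxia females, not with its own number.

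The log2 ratio of the endothelial sums was -0.31, and -0.69 without Vwf. Nkx2-1 turned to -0.0095 with RLE scaling, -0.0085 with DESeq2 and -0.034 with the replicate block. Lamp3 was -0.0093 without the 4 libraries with most genes detected, and Vwf was 0.010 without scaling. Leaving out libraries gave ranges of -0.19 to 0.41 for Nkx2-1, -0.13 to 0.20 for Lamp3, -1.25 to 0.79 for Scgb1a1, -1.55 to 0.78 for Dcn and -0.79 to 0.20 for Pdgfra. Medians by lineage ranged from 0.18 to 0.43 (epithelial), -0.999 to -0.38 (endothelial) and -0.96 to -0.40 (mesenchymal). Groups of 2 or 3 libraries, and at most 13 counts a library for Dcn and 12 for Lum, limit the precision.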
